A study of Mus musculus with 2 samples.

Results

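Granzyme-rich natural killer (NK) cells of mouse tumours were NK cells with a high sum of the transcripts of granzymes C to G. They were 2883 of the 36259 cell barcodes that passed the filters, 1847 in the WT library and 1036 in the Ythdf2 KO library. Members were chosen by their own measured counts of NK genes, granzymes and other lineage genes. A barcode was a member when it had at least 200 genes, at most 10% mitochondrial UMIs (unique molecular identifiers, each standing for a captured transcript) and at least 3 UMIs in all of Ncr1, Klrb1c and Klre1, which encode NK receptors. It had at most 1 UMI of Cd3d, Cd3e and Cd3g, the T cell receptor chains of the CD3 complex. It had under 10 UMIs per 10000 of the macrophage genes C1qa, C1qb, C1qc, Csf1r, F13a1 and Ms4a6c. Finally, Gzmc, Gzmd, Gzme, Gzmf and Gzmg had to sum to at least 20 UMIs per 10000. NK cells that passed every step but the last, 753 in the WT and 463 in the Ythdf2 KO library, are called granzyme-low below.

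NK cells kill by releasing granules in which perforin forms pores in the target membrane and granzymes, serine proteases, enter to cleave proteins inside the target. Granzymes A and B are the widely shared granzymes of killer lymphocytes. In mice a further set, granzymes C to G, is encoded in a tight cluster beside granzyme B and is known from strongly stimulated killer cells and from NK cells of the uterus. Intracellular serpins protect the killer cell from its own granzymes.

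The cells came from 2 libraries of CD45+ leukocytes that had been sorted from tumours of C57BL/6 mice, 1 WT and 1 Ythdf2 KO, and were profiled with a 10x Genomics 5′ kit. Ythdf2 encodes a reader of N6-methyladenosine that promotes the decay of marked mRNA. The sample labels name a knockout tumour, the design text of the series names conditional knockout mice, and its title speaks of a role within the tumour, so which cells lacked Ythdf2 is not settled here. Tumour type, number of animals, sex, age and Cre driver are not given in the sources used here. With 1 library per genotype no difference between genotypes has a replicate check, no test was run, and intervals in this text (95%) cover counting error only.

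Ythdf2 itself was at 51.3 CPM (UMIs of the gene per 1000000 UMIs, summed over all member cells) in WT and 49.8 CPM in Ythdf2 KO granzyme-rich NK cells, a ratio of 0.970 (0.889 to 1.06). In granzyme-low NK cells it was at 53.2 and 44.9 CPM. Its transcript was thus present in the NK cells of both libraries at levels whose counting intervals overlap.

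Member cells were deeply covered. Their median depth was 14111 UMIs and 3112 genes in WT and 13543.5 UMIs and 2976 genes in Ythdf2 KO, against 6153 and 4756 UMIs in granzyme-low NK cells. The libraries shared 101 barcode sequences, of which 9 WT and 4 Ythdf2 KO members carried one and 1 was a member in both. The macrophage step set aside 880 WT and 540 Ythdf2 KO barcodes with NK genes, and 57.8% and 56.7% of these would have passed the granzyme limit. Doublets were not removed: 7.63% of members in either library stood among the 8% of barcodes with the highest doublet scores.

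The NK label was checked against markers of NK cells and of other cells, with mixed results for T cell genes. Klrd1, a subunit of the CD94 receptor, was at 713 CPM in WT and 657 CPM in Ythdf2 KO members, and Eomes, a transcription factor of conventional NK cells, at 157 and 142 CPM. Nkg7, a granule membrane protein, was at 1768 and 1846 CPM. Cd4, Cd8a and Cd8b1, which mark T cell classes, lay between 0.11 and 1.08 CPM. Transcripts of the constant T cell receptor beta segments were present (Trbc1 at 471 and 500 CPM), while Trac, the alpha segment, was at 8.90 and 6.14 CPM. The whole T cell list summed to 787 and 802 CPM in members, 841 and 939 CPM in granzyme-low NK cells and 36.2 and 25.8 CPM in macrophages. For the list of gamma-delta T cell genes these sums were 74.3 and 72.7, 126 and 140, and 3.15 and 1.74 CPM. Of the list of mast cell and basophil genes, Fcer1a, Ms4a2 and Mcpt4 had no UMI in the members of either library. Mcpt8, of the same list, went the other way, at 34.5 and 51.0 CPM in members, where the whole list summed to 35.0 and 51.3 CPM. RNA of other leukocytes was present at low levels: the neutrophil list summed to 275 and 612 CPM against 172688 CPM in WT neutrophils, and the list of macrophage and monocyte genes to 1361 and 1729 CPM against 22427 CPM in WT macrophages that express C1q.

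All 5 granzymes of the gate lie on the minus strand of chromosome 14 within a stretch of closely related genes (build GRCm38, GENCODE M21). Gzme spans chr14:56117626-56120625, Gzmd chr14:56129556-56132608, Gzmg chr14:56156582-56159579, Gzmf chr14:56205263-56211417 and Gzmc chr14:56231441-56234656. The gate summed these 5 genes, so the rule itself put them together. The DNA just before their start sites is shown as a description. Below are the 130 bases that hold the region before each start site, 5′ to 3′ on the coding strand, from RefSeq (GRCm38.p6). They lie at chr14:56234658-56234787 for Gzmc, chr14:56132594-56132723 for Gzmd, chr14:56120626-56120755 for Gzme, chr14:56211408-56211537 for Gzmf, chr14:56159580-56159709 for Gzmg. Capitals mark a run of 20 bases that all 5 share.
Gzmc: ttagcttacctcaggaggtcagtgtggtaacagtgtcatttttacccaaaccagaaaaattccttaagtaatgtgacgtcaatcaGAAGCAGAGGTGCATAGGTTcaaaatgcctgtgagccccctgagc
Gzmd: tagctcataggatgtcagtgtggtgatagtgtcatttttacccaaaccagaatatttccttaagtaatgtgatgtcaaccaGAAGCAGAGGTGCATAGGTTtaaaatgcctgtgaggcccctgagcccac
Gzme: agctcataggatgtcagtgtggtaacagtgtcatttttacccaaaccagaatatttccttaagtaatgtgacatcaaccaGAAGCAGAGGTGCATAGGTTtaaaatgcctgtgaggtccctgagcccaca
Gzmf: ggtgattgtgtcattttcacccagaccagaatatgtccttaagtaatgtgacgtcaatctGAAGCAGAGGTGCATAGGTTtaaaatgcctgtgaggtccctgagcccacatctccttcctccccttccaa
Gzmg: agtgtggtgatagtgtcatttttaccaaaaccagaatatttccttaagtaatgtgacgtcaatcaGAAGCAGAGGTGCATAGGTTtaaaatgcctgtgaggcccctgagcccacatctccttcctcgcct
In the table of 32851 windows, each reaching 250 bases before to 50 bases after a start site, that run occurred in 5, and these were the windows of the 5 granzymes. It began 45 bases before the RefSeq start site in Gzmc and 70 bases before it in Gzmf, the nearest and the farthest by RefSeq. The GENCODE spans of Gzmd and Gzmf given above reach into the bases shown, so these distances and their order depend on the annotation. Over 250 bases before the start site, Gzmd and Gzme were 94.8% identical and Gzmc and Gzmf 71.5%, the closest and the most distant pairs. Searched on both strands, the Runx letters TGTGGT stood in 5 of 5 windows, against 16.8% of all windows. They were not particular to these genes, since the windows of Gzma, Gzmb, Prf1, Ctsg and Mcpt8 also held them, and that of Gzmn did not. Because the 5 windows resemble one another, their matches are not separate ones. The CRE letters TGACGTCA stood in the windows of Gzmc, Gzmf and Gzmg, against 1.79% of all windows. The AP-1 letters TGANTCA, the STAT letters TTCNNNGAA and the T-box letters GGTGTGA stood in none of the 5, against 7.81%, 8.30% and 3.98% of all windows. Such matches describe letters only.

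Granzyme content ranged widely among NK cells, and the rule cut this range at 20 UMIs per 10000. Among the 2600 WT NK cells that passed the NK steps, 5.69% had no UMI of the 5 granzymes and 12.2% had fewer than 5 per 10000, while 17.3% had 320 or more per 10000. Among the 1499 Ythdf2 KO NK cells these shares were 11.5%, 11.1% and 20.4%. In WT, the bins from 5 to 10, 40 to 80, 80 to 160 and 160 to 320, each spanning a doubling, held 5.38%, 10.6%, 17.5% and 18.3%. In Ythdf2 KO they held 4.60%, 9.41%, 13.9% and 20.6%. On either side of the limit, the bins from 10 to 15, 15 to 20, 20 to 25 and 25 to 40 held 3.0%, 2.69%, 2.15% and 5.19% in WT and 1.87%, 1.73%, 1.33% and 3.40% in Ythdf2 KO. Just inside it, at 20 to 25 per 10000, were 56 WT and 20 Ythdf2 KO cells, and just outside it, at 15 to 20, were 70 and 26 cells. Gzmc was at 1849 and 2008 CPM just inside and at 1456 and 1476 CPM just outside, and Ncr1 at 369 and 344 CPM inside against 288 and 344 CPM outside. The members as a whole had a median of 161 granzyme UMIs per 10000 in WT and 198 in Ythdf2 KO.

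**Figure D1:**
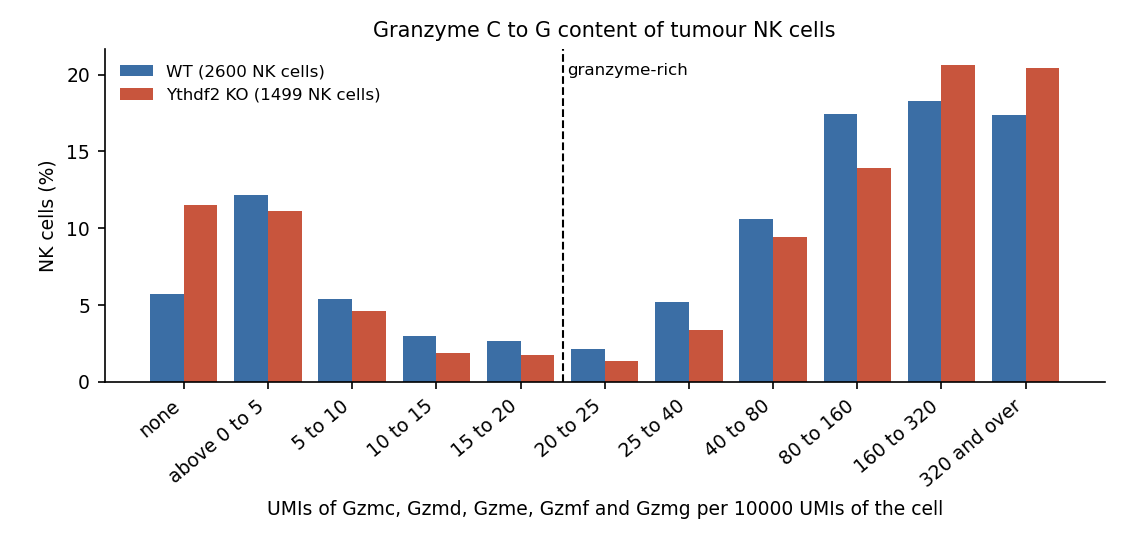
Share of NK cells (y axis, %) by their UMIs of granzymes C to G per 10000 UMIs (x axis, bins of unequal width), for the 2600 WT and 1499 Ythdf2 KO NK cells. The dashed line is the limit of 20; every bin holds cells in both libraries, with 2.15% and 1.33% at 20 to 25 and 17.3% and 20.4% at 320 or more.

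The 5 granzymes chose the cells, so their levels are a description. Gzmc, granzyme C, was at 12961 CPM in WT and 14737 CPM in Ythdf2 KO members and at 500 and 411 CPM in granzyme-low NK cells. Gzmd was at 4473 and 5480 CPM in members and at 43.0 and 30.7 CPM in granzyme-low cells. Gzme was at 2080 and 2812 CPM against 24.2 and 12.5 CPM. Each of these was thus 25.9 to 225 times as high in the cells chosen for it. Gzmf was at 5714 and 7271 CPM against 39.96 and 29.7 CPM, and Gzmg at 2025 and 3159 CPM against 14.5 and 9.46 CPM.

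At a matched depth of 2000 UMIs per cell, which left out 6 WT and 4 Ythdf2 KO members, Gzmc was seen in 99.5% and 99.8% of members. Gzmd was seen in 66.8% and 67.7% (78.3% and 78.0% at full depth) and Gzme in 55.0% and 60.8% (73.1% and 73.6%). Gzmf was seen in 34.7% and 32.0% (55.0% and 50.3%) and Gzmg in 26.7% and 30.7% (41.7% and 42.7%). Free RNA was present: Gzmc was seen in 21.5% and 12.8% of C1q macrophages (median depth 4937 and 5729.5 UMIs before thinning) and Gzmf in 10.97% and 7.23%. In granzyme-low NK cells Gzmd, Gzme, Gzmf and Gzmg were each seen at about the macrophage share, for Gzmd 8.14% and 5.86% against 7.63% and 5.02%. Gzmc stood above it there, at 43.3% and 30.4%.

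Within the members, the granzymes came in a limited number of combinations. The carriers counted here had at least 10 UMIs per 10000 of a granzyme, a limit chosen after the data had been seen and equal for all genes, so each count also depends on how well that gene is captured. Nearly all members carried Gzmc, 1827 of 1847 in WT and 1029 of 1036 in Ythdf2 KO. Those that carried Gzmc alone were the most frequent combination, 680 cells (36.8%) in WT and 379 (36.6%) in Ythdf2 KO. Gzmc with Gzmd and Gzme followed with 303 (16.4%) and 190 cells (18.3%). All 5 granzymes were carried by 190 WT (10.3%) and 133 Ythdf2 KO cells (12.8%).

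The combinations were nested in part. Of WT cells that carried Gzme, 94.9% also carried Gzmd, and of those that carried Gzmd 69.5% also carried Gzme. In Ythdf2 KO these shares were 97.1% and 75.1%. Of cells with Gzmg, 96.2% in WT and 96.7% in Ythdf2 KO also carried Gzmd. Gzmf departed from the nesting: 78.3% and 88.9% of its carriers had Gzmd, and Gzmc with Gzmf and no other was seen in 89 WT (4.82%) and 19 Ythdf2 KO cells (1.83%). Across cells, the ranks of Gzmd and Gzme went together most closely (Spearman rho 0.865 over 1847 WT cells and 0.896 over 1036 Ythdf2 KO cells), and those of Gzmc and Gzmf least (0.161 and 0.132). These correlations are descriptions; the cells of a library share their depth and free RNA, and depth itself had a rho of 0.210 and 0.287 with the summed granzymes.

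**Figure D2:**
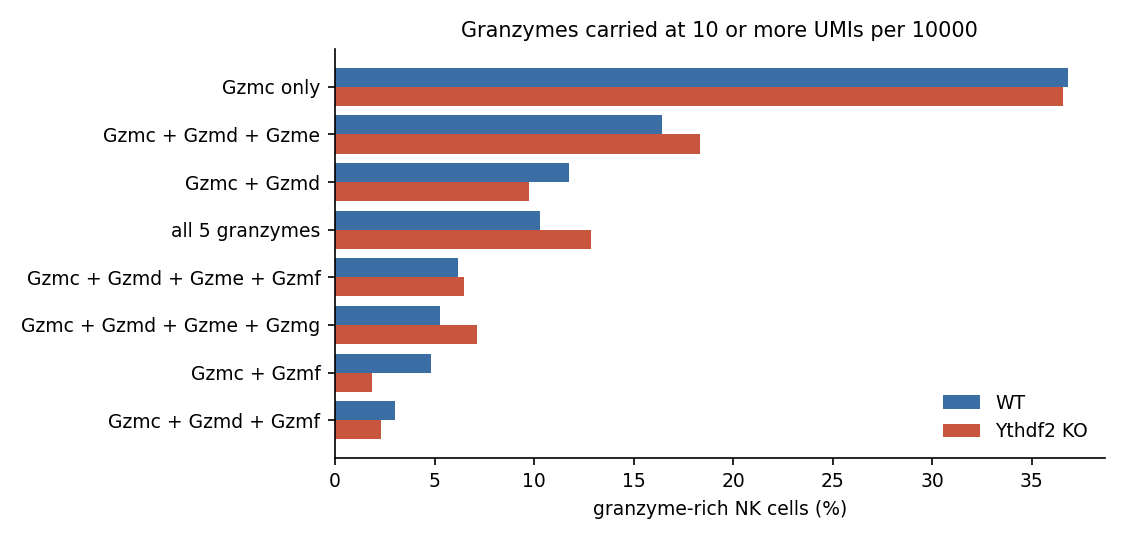
Share of granzyme-rich NK cells (x axis, %) with each combination of granzymes at 10 or more UMIs per 10000, for the 8 most frequent combinations of the WT library (y axis), in WT and Ythdf2 KO. Gzmc alone leads in both libraries, at 36.8% and 36.6%, and Gzmc with Gzmf alone is at 4.82% and 1.83%.

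Neighbours of the granzymes on chromosome 14 that the gate did not use also stood apart. They were looked at after their values had been seen. Ctsg, cathepsin G, a granule protease best known from neutrophils (chr14:56099881-56102574), had 1381 UMIs in WT members and 10 in granzyme-low cells, or 48.8 against 1.67 CPM, 29.2-fold (15.8 to 61.0). In Ythdf2 KO it had 1620 UMIs, or 102 CPM, against none, which is at least 101-fold higher when the granzyme-low group is set to 3 counts. Mcpt8, a protease named from mast cells (chr14:56082166-56085273), was at 34.5 against 1.17 CPM in WT, 29.5-fold (14.2 to 73.5), and at 51.0 against 1.35 CPM in Ythdf2 KO, 37.8-fold (14.7 to 139). Gzmn, granzyme N, lies among the 5 and was scarce, with 83 UMIs in WT members against 1 (ratio 17.5, 3.06 to 701) and 88 against 2 in Ythdf2 KO (8.24, 2.22 to 69.1).

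The pattern did not run on to the next genes. Gzmb, the last gene of the cluster (chr14:56258838-56262260), was at 5349 CPM in WT members and 5297 CPM in granzyme-low cells, and at 4697 and 4809 CPM in Ythdf2 KO. Cma1, a chymase beyond Mcpt8, was lower in members, 2.51 against 6.19 CPM in WT, where members had 1.61% of the neutrophil level, and 1.27 against 18.2 CPM in Ythdf2 KO. Cenpj, the centromere protein gene past Gzmb, had ratios of 1.11 and 1.14, and Sdr39u1, past Cma1, a ratio of 1.07 in both. Reads passed between related genes were looked for in the transcripts. No identical stretch of 100 bases was shared between Ctsg, Mcpt8, Gzmb, Gzmc, Gzme, Gzmf or Gzmn and any other of the set. Gzmd and Gzmg shared 2 such windows. Stretches with a mismatch were not counted, so reads passed between such stretches were not tested.

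**Figure D3:**
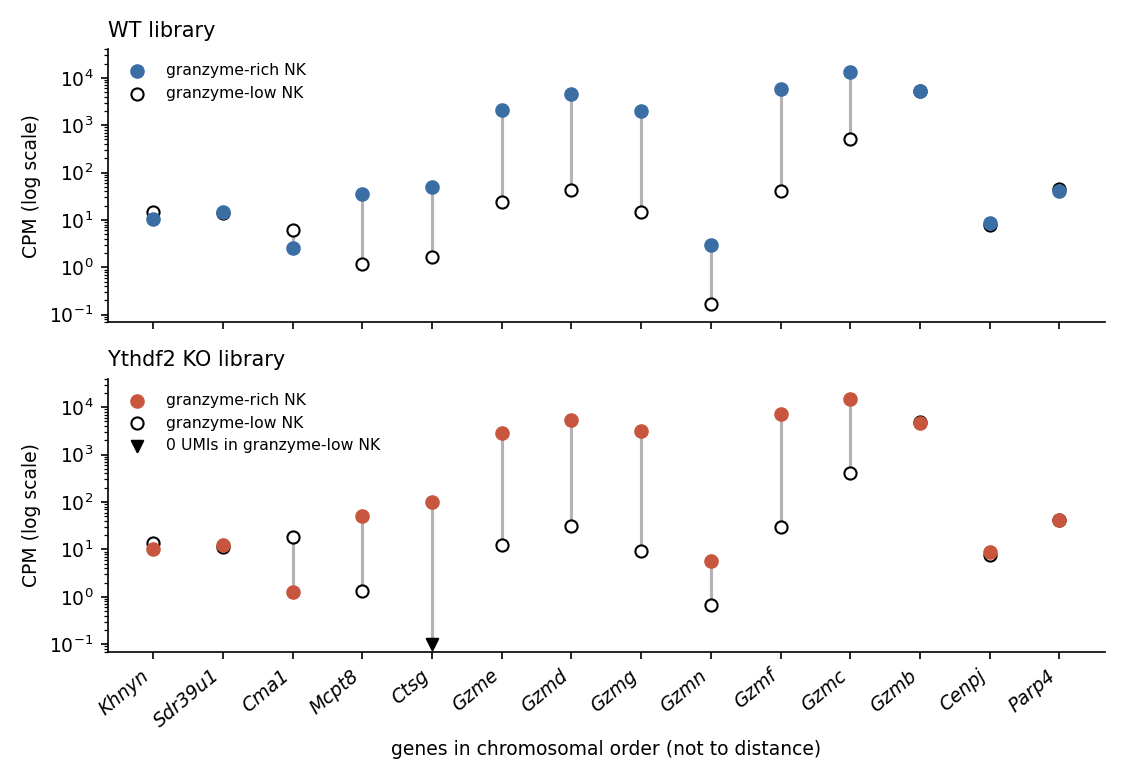
CPM on a log scale (y axis) in granzyme-rich (filled) and granzyme-low NK cells (open) for genes of the chromosome 14 block in chromosomal order (x axis, not to distance), WT above and Ythdf2 KO below. Filled points lie above open ones from Mcpt8 to Gzmc and on them at Gzmb, Cenpj and Parp4; Ctsg had 0 UMIs in Ythdf2 KO granzyme-low cells (triangle).

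Ctsg and Mcpt8 stood in few cells, and these were rich in granzymes. At 1 UMI or more per 10000, Ctsg was carried by 62 WT and 63 Ythdf2 KO members, and its highest level in a WT cell was 73.4 per 10000. Of these carriers, 90.3% and 90.5% carried Gzmg, which 18.3% and 23.3% of all members carried. Mcpt8 was carried by 146 and 120 members, of which 58.2% and 58.3% carried Gzmg. At 2000 UMIs per cell Ctsg was seen in 2.28% and 4.26% of members (5.36% and 7.82% at full depth) against 0.110% and 0.202% of C1q macrophages. Neutrophils were at 22.0 CPM of Ctsg in WT and 0.450 CPM in Ythdf2 KO, below the members of the same library. S100a8, a defining neutrophil gene, stood at 93.2 and 215 CPM in members.

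Granzymes A and B, perforin and the genes of granule release differed less between members and granzyme-low NK cells than granzymes C to G did. Between members and granzyme-low NK cells, 8529 genes outside the gate had at least 100 UMIs over the pair of groups in each library. At least 1.5-fold higher in members in both libraries were 217 of them (2.54%), and 639 (7.49%) were lower. Scaled to the median ratio, these counts were 291 and 512, since the median gene was at a log2 ratio of -0.05 in WT and -0.12 in Ythdf2 KO. Gzma, granzyme A, was at 0.855 of the granzyme-low level in WT and 0.850 in Ythdf2 KO. Prf1, perforin, had ratios of 1.21 and 1.39. None of the 16 genes for the pore and for granule release was 1.5-fold higher in both, and Stx11 and Lyst, which act in granule release and lysosome traffic, were lower (Stx11 at ratios of 0.598 and 0.556, Lyst 25.4 against 66.1 CPM in WT and 23.8 against 69.2 CPM in Ythdf2 KO). Members had 10.3% and 13.1% of the neutrophil level of Stx11 and 6.82% and 8.14% of that of Lyst.

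Of 6 compared intracellular serpins, 2 were higher in members of both libraries. Whether each of them blocks a granzyme was not examined. Serpinb9b was at 198 against 108 CPM in WT and at 440 against 133 CPM in Ythdf2 KO. Serpinb6a was at 61.3 against 35.3 CPM and at 99.3 against 33.4 CPM. Serpinb9, the granzyme B inhibitor, was at ratios of 0.833 and 0.800. Death ligands were not higher: Fasl, the ligand of the Fas death receptor, was at ratios of 0.600 and 0.407, and Tnfsf10, TRAIL, at 0.732 and 0.787.

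Integrins and receptors differed between members and granzyme-low cells. Itga1, integrin alpha 1, known from tissue-resident NK cells and type 1 innate lymphoid cells, was at 67.6 against 15.7 CPM in WT (4.30-fold, 3.50 to 5.35) and at 42.1 against 10.1 CPM in Ythdf2 KO (4.16-fold, 2.89 to 6.21). Itga2, integrin alpha 2, which carries the DX5 epitope of conventional NK cells, was at 7.70 against 28.3 CPM and at 6.77 against 39.5 CPM. Of 12 compared markers of conventional NK cells, 7 were lower in both libraries and 1 was higher. The lower ones were Itga2, Itgam, Zeb2 and the Ly49 receptor genes Klra3, Klra4, Klra8 and Klra9, with members at 5.59% of the WT macrophage level of Itgam and 9.38% of that of Zeb2. The higher one was Klrg1, an inhibitory receptor of mature killer cells, at 124 against 28.3 CPM and 127 against 19.6 CPM.

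Markers of type 1 innate lymphoid cells were mixed. Their whole list, Itga1 included, summed to 1570 against 1125 CPM in WT and 1659 against 1413 CPM in Ythdf2 KO. The median log2 ratio of the 5 compared was 0.17 and 0.24. Of these 5, Itga1 alone was 1.5-fold higher in both libraries and 1 was lower. The lower one was Il7r, the interleukin 7 receptor, at 21.5 against 49.5 CPM and 25.2 against 51.0 CPM, with members at 9.13% and 13.3% of the macrophage level. Cxcr6 was at 1.27 and 1.83 CPM and Zfp683 (Hobit) at 0.071 and 0.063 CPM in members. Among 14 compared inhibitory receptors 3 were higher, Klrg1, Havcr2 (TIM-3, 46.8 against 17.9 CPM and 66.2 against 13.2 CPM) and Pdcd1 (PD-1, 7.46 against 3.01 CPM and 13.1 against 2.03 CPM).

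Receptors for cytokines that drive NK cells were lower in members, 9 of 16 compared. Il12rb2, a chain of the interleukin 12 receptor, was at ratios of 0.349 in WT and 0.358 in Ythdf2 KO, and Il18r1, of the interleukin 18 receptor, at 0.421 and 0.332. Il2rb, the beta chain for interleukins 2 and 15, was at 865 against 969 CPM and 830 against 978 CPM. Of 23 transcription factors of NK cells 8 were lower and none higher. Tcf7, of early and memory-like lymphocytes, was at ratios of 0.358 and 0.312, and Tox at 0.241 and 0.209. Eomes was at 0.836 and 0.660 and Tbx21 (T-bet) at 0.723 and 0.761, so neither passed the fold in both libraries.

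Secreted factors split. Spp1, osteopontin, was at 4523 against 959 CPM in WT (4.72-fold, 4.59 to 4.84) and at 4415 against 1040 CPM in Ythdf2 KO (4.25-fold, 4.10 to 4.40). Chemokines that attract T cells and dendritic cells went the other way. Ccl5 was at 219 against 2082 CPM in WT and at 240 against 4699 CPM in Ythdf2 KO. Ccl4 was at 222 against 1380 CPM and 350 against 2731 CPM, with members at 4.02% and 5.44% of the level in neutrophils. Ccl3 was at ratios of 0.186 and 0.111 and at 1.58% and 1.87% of the neutrophil level. Xcl1, the ligand of cross-presenting dendritic cells, was at 243 against 786 CPM and 313 against 786 CPM. Ifng, interferon gamma, was at 83.5 against 210 CPM and 89.3 against 370 CPM. In all, 5 of 13 compared secreted factors were lower and 2 higher in both libraries, the second higher one being Ccl1 (562 UMIs against 19 in WT and 307 against 1 in Ythdf2 KO, ratios of 6.25, 3.97 to 10.5, and 57.5, 10.3 to 2279).

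Further genes at the ends of the ranking were named by rule. The highest after Mcpt8 and Ctsg were Gm44040 (7.08 and 12.3-fold), Sema6d (6.27 and 5.07-fold), Mt2 (7.498 and 4.86-fold), Myo10 (5.96 and 4.80-fold) and Tmsb15a (5.599 and 4.49-fold). Sema6d encodes a semaphorin, Myo10 a myosin of filopodia and Tmsb15a a thymosin that binds actin. Gm44040 is annotated as antisense, and whether strand was used in counting is not given in the sources used here. Gadd45g, of the stress-induced Gadd45 family, was 4.16 and 4.11-fold higher. The lowest included Cd7 (ratios of 0.170 and 0.179), Cxcr4, the CXCL12 receptor (0.198 and 0.176), Sla (0.289 and 0.213) and Ly9 (0.273 and 0.220). Members had 5.28% and 5.45% of the B cell level of Cxcr4 and 16.8% and 21.5% of the B cell level of Ly9. St3gal6, Mmp12 and Nfkbiz, also among the 12 lowest, stood at 5.39%, 10.0% and 6.14% of the highest other cell class in WT.

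Response programmes were lower in members and housekeeping ones were not. Of 15 compared genes of the type I interferon response 10 were lower in both libraries, among them Isg15 (313 against 484 CPM and 227 against 402 CPM). Of 16 interferon gamma response genes 8 were lower, and of 12 immediate early genes 9, among them Fos (514 against 876 CPM and 525 against 1040 CPM). Of 15 feedback and survival genes of cytokine signalling 8 were lower, including Pim1 and Socs3, which stood at 16.8% of the WT neutrophil and 17.0% of the WT macrophage level. Of 27 nuclear genes of oxidative phosphorylation none passed the fold either way, with median log2 ratios of 0.05 and 0.03. Of 17 glycolysis genes 1 was higher, the glucose transporter Slc2a3, at 13.1% and 24.6% of the neutrophil level. Of 18 proliferation genes 2 were higher, Cdc20 and Tyms, and Mki67 was at 96.8 against 79.8 CPM and 94.8 against 72.3 CPM. Both named metallothioneins, metal-binding stress proteins, were higher, Mt1 at 465 against 106 CPM and 263 against 85.1 CPM.

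Depth and free RNA differ between these groups, beside the fold changes given. Cells of 5000 to 15000 UMIs in both groups gave log2 ratios of 2.03 in WT and 1.82 in Ythdf2 KO for Itga1, 1.95 and 1.41 for Spp1, and 1.85 and 2.51 for Klrg1. They gave -2.85 and -3.52 for Ccl5. Ifng was at -0.95 and -1.01 in that range, against -1.33 and -2.05 over all cells. Xcl1 was at -1.35 and -0.82 against -1.69 and -1.33. Mt2 in Ythdf2 KO went the other way, at 3.42 in the range against 2.28. Members were still deeper within the range, at a median of 10651.5 against 8619.5 UMIs in WT and 10289 against 7213 UMIs in Ythdf2 KO. All 7 compared neutrophil genes were lower in members, where the neutrophil list summed to 275 and 612 CPM against 883 and 1624 CPM in granzyme-low cells. Interferon-induced and immediate early genes are also high in macrophages and neutrophils, where Isg15 of WT members reached 9.69% of the highest of these classes and Fos 13.1%. The part of such RNA in the lower values of members was not tested.

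Across NK cells of rising granzyme content, Spp1, Itga1 and Klrg1 rose step by step in both libraries rather than only at the limit of 20. Bands of 0 to 5, 5 to 20, 20 to 100, 100 to 300 and 300 or more granzyme UMIs per 10000 held 465, 288, 602, 746 and 499 WT cells. In these, Spp1 was at 801, 1160, 1456, 3035 and 9350 CPM, and Itga1 at 13.1, 19.0, 31.0, 55.5 and 118 CPM. Klrg1 was at 17.6, 41.8, 60.7, 102 and 212 CPM. All of them were highest in the band richest in granzymes. In Ythdf2 KO the ends of the range were 977 and 7596 CPM for Spp1, 7.33 and 66.3 CPM for Itga1 and 18.9 and 202 CPM for Klrg1. Median depth rose over the bands too, from 5696 to 15954 UMIs in WT and from 4339 to 16125 UMIs in Ythdf2 KO. Its part in these differences was not tested.

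Tcf7, Xcl1 and Ccl5 were lowest in the band richest in granzymes in both libraries. Tcf7 was at 35.8, 39.9, 26.7, 11.6 and 3.57 CPM in WT and at 55.0 CPM in the first and 6.42 CPM in the last band of Ythdf2 KO. Xcl1 was at 715, 877, 409, 259 and 67.8 CPM in the WT bands, so it and Tcf7 were highest in the second band there. Ccl5 was at 2742, 1239, 368, 180 and 132 CPM in WT, with the largest ratio between neighbouring bands at the limit of 20. Prf1 was higher in the last than in the first band, at 1884 against 1285 CPM in WT and 1987 against 1122 CPM in Ythdf2 KO. Gzma was lower there, at 7422 against 8688 CPM in WT and 7754 against 9523 CPM in Ythdf2 KO. Mki67 was at 72.8, 88.6, 117, 92.7 and 83.6 CPM in the WT bands, with its highest value in the middle band. Ctsg stayed at 8.94 CPM or below up to 300 per 10000 and was at 147 CPM above it in WT, and at 262 CPM in Ythdf2 KO.

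**Figure D4:**
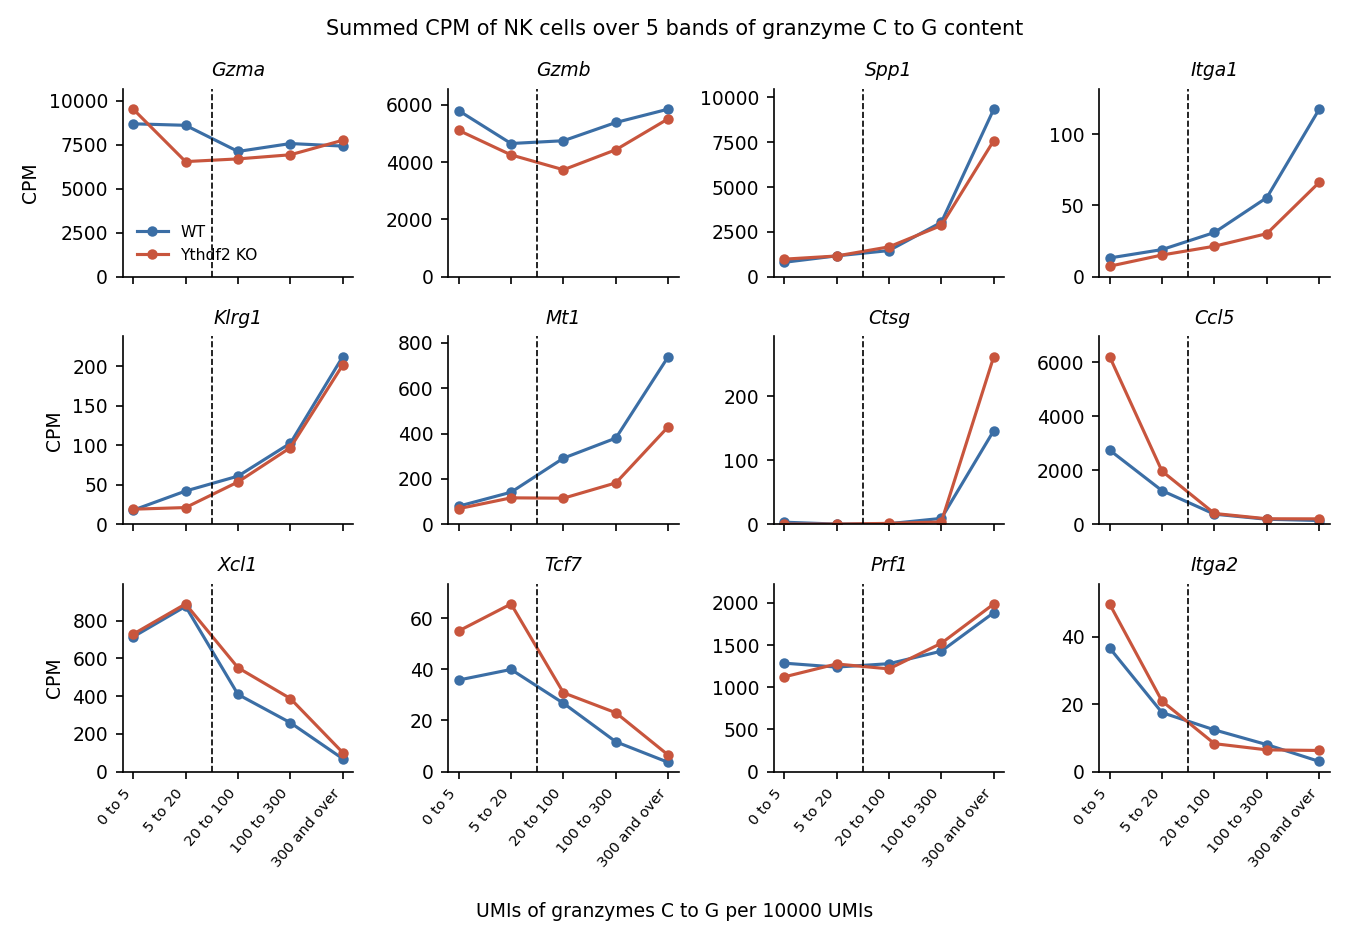
CPM of 12 genes (y axes, linear from 0) summed over NK cells in 5 bands of granzyme C to G content (x axes, UMIs per 10000), WT and Ythdf2 KO; the dashed line is the limit of 20. Spp1, Itga1, Klrg1, Mt1 and Ctsg are highest in the last band of both libraries; Ccl5, Tcf7 and Itga2 are lower on the right of the line.

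Cells with all 5 granzymes were also set beside those with Gzmc alone. In WT, Spp1 was at 12707 CPM in the 190 cells with all 5 and at 1830 CPM in the 680 cells with Gzmc alone, and in Ythdf2 KO at 9602 and 2197 CPM. Tcf7 was at 3.47 against 25.8 CPM and at 1.83 against 33.3 CPM. Ctsg was at 330 against 0.446 CPM and at 528 against 0.629 CPM. Ccl5 was at 49.1 against 272 CPM in WT but at 320 against 280 CPM in Ythdf2 KO, so its direction differed between the libraries. Median depth was 16974 against 11865 UMIs in WT and 19213 against 11237 UMIs in Ythdf2 KO, and its part in these differences was not tested.

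Granzyme-rich NK cells were a smaller share of the sorted leukocytes in the Ythdf2 KO library. Among filtered barcodes they made up 9.05% in WT (exact Clopper-Pearson interval 8.66 to 9.45) and 6.54% in Ythdf2 KO (6.16 to 6.93), a difference of -2.51 points (Newcombe interval -3.06 to -1.96). Granzyme-low NK cells were 3.69% and 2.92%. Within the NK cells, members made up 71.0% (69.3 to 72.8) in WT and 69.1% (66.7 to 71.4) in Ythdf2 KO, a difference of -1.93 points (-4.86 to 0.969) whose interval includes 0. Among cells of 5000 to 15000 UMIs that difference was 1.11 points. With 1 library of each, the genotype and the library cannot be told apart.

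Between the libraries, 10121 genes had at least 100 UMIs over the members. Of these 172 (1.70%) were at least 1.5-fold higher and 207 (2.05%) at least 1.5-fold lower in Ythdf2 KO. Of the 8 granzymes compared, Gzmg and Gzmn were past the fold. Gzmg was at 1.56 times the WT level (1.54 to 1.58), Gzme at 1.35, Gzmf at 1.27, Gzmd at 1.23 and Gzmc at 1.14, while Gzmb was at 0.878 and Gzma at 0.973. These genes belong to the rule that chose the cells, apart from Gzma, Gzmb and Gzmn. Within cells of 5000 to 15000 UMIs the log2 ratio was 0.25 for Gzmg, 0.06 for Gzme and -0.19 for Gzmf. In granzyme-low cells the ratios ran the other way, 0.650 for Gzmg (0.409 to 1.01) and 0.821 for Gzmc (0.768 to 0.878). Free granzyme RNA was lower in the Ythdf2 KO library as well, as the macrophage shares above show, and its part in the granzyme-low values was not tested.

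Serpinb9b, a member of the granzyme-inhibiting serpins, was among the highest, at 440 CPM in Ythdf2 KO and 198 CPM in WT members (2.23-fold, 2.15 to 2.31). In granzyme-low cells the ratio was 1.23 (1.08 to 1.40). At 2000 UMIs per cell it was seen in 21.2% of WT members (19.4 to 23.2) and in 35.3% of those from Ythdf2 KO (32.4 to 38.3) (37.0% and 55.9% at full depth), against 0.392% and 0.526% of C1q macrophages. Serpinb6a was 1.62-fold and Serpinb1a 1.67-fold higher, so 3 of 6 compared serpins passed the fold; Serpinb1a stood at 5.21% and 10.4% of the B cell level. Over the 18 alternatives of processing the log2 ratio of Serpinb9b lay between 0.90 and 1.19.

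Other genes higher in Ythdf2 KO members were the long noncoding gene Gm42031 (3.25-fold), Ctsg (2.10-fold), Ccdc184 (1.86-fold), Dscam, a neuronal adhesion gene (1.83-fold), and Gipc2, a scaffold gene (1.81-fold). Ctsg lost the fold (log2 0.41) when NK genes had to reach 5 per 10000. Gm42031 had a ratio of 3.96 in granzyme-low cells too, and was at 56.3 CPM in Ythdf2 KO against 21.4 CPM in WT C1q macrophages. Upp1, uridine phosphorylase (2.23-fold), and Ltb4r1, the leukotriene B4 receptor (1.92-fold), were at 14.2% of the WT neutrophil and 11.8% of the WT macrophage level. S100a9 (2.38-fold) and S100a8 (2.31-fold) were at 0.145% and 0.148% of the level in WT neutrophils, Il1b (2.11-fold) at 1.34% of it and Ccl12 (1.95-fold) at 4.06% of the macrophage level. Of the 8 neutrophil markers 6 were higher in Ythdf2 KO members, and neutrophils numbered 957 in that library and 573 in WT. Without barcodes that held a second lineage the log2 ratio was 0.15 for S100a9 and 0.33 for S100a8.

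Lower in Ythdf2 KO members was first Pmepa1, a target gene and inhibitor of TGF-beta signalling, at 14.4 against 38.4 CPM (ratio 0.376, 0.324 to 0.434). Ski, a repressor of the same pathway, was at a ratio of 0.562. Osgin1, of the oxidative stress response, was at 0.417 and stood at 26.9% and 11.1% of the neutrophil level. The ratio was 0.435 for Tmsb15a and, for Klra5, an Ly49 receptor gene, 0.473 (0.420 to 0.531). Klra5 was seen in 6.36% of WT and 2.81% of Ythdf2 KO members at 2000 UMIs (15.5% and 8.11% at full depth). In granzyme-low cells Klra5 had a ratio of 0.333 and Pmepa1 one of 0.697. Pmepa1 was also lower in C1q macrophages of the Ythdf2 KO library, at 11.8 against 27.4 CPM in WT. Mt1 and Mt2 were at ratios of 0.564 and 0.497, and 3 of 5 compared genes of metallothioneins and zinc transport were lower, the other being the zinc exporter Slc30a1 (17.9% and 11.7% of the macrophage level). Slc7a5, an amino acid transporter, was at 0.576, and Sidt1, Smyd3 and Qrfp at 0.552, 0.555 and 0.556. Hspa1b, a heat shock protein, was at 0.583 and reached 11.6% and 18.9% of the B cell level. It was also lower in Ythdf2 KO C1q macrophages (220 against 328 CPM in WT) and B cells (269 against 751 CPM), but not in neutrophils (94.5 against 70.7 CPM).

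**Figure D5:**
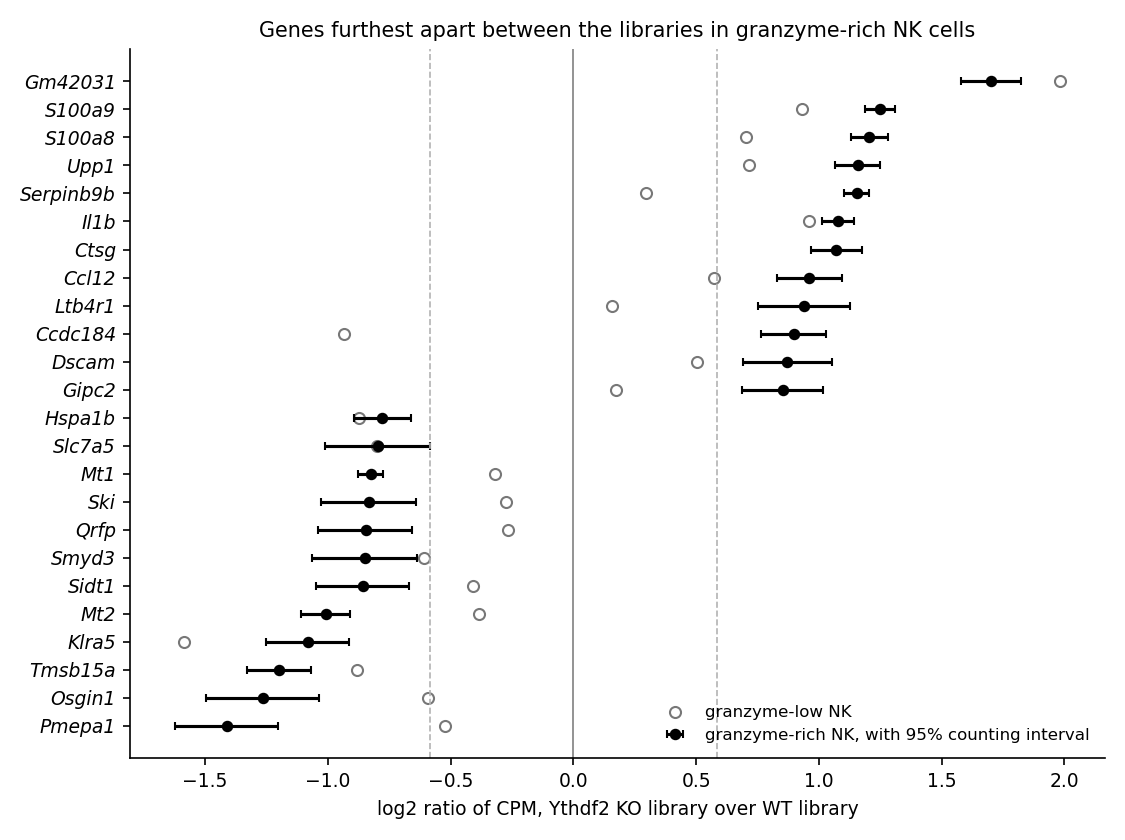
Log2 ratio of CPM, Ythdf2 KO over WT (x axis), in granzyme-rich NK cells (filled, bars are 95% counting intervals) and granzyme-low NK cells (open) for the 24 genes furthest apart (y axis); dashed lines mark 1.5-fold. Serpinb9b is at 1.15 in rich and 0.30 in low cells, Pmepa1 at -1.41 and -0.52; Ctsg has no open point because Ythdf2 KO granzyme-low cells held none.

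Integrins and receptors that set members apart from granzyme-low cells were compared between the libraries too. Klrg1 had a ratio of 1.03 (0.971 to 1.08) and Spp1 one of 0.976. Itga1 was lower in Ythdf2 KO, at 0.623 (0.570 to 0.681), and so was Cd28, a costimulatory receptor from the T cell list, at 0.619 (0.572 to 0.669). Ccr2, the receptor for monocyte-attracting chemokines, was at 1.54 times and Pdcd1 at 1.76 times the WT level. None of the 12 markers of conventional NK cells, 15 interferon type I genes, 16 interferon gamma genes, 18 proliferation genes or 27 oxidative phosphorylation genes passed the fold between the libraries. Among 14 compared m6A readers, writers and erasers none passed it either, with a median log2 ratio of -0.15 against -0.04 over all genes compared. Over all 10121 genes compared 1.70% were higher and 2.05% lower, so a list of this length can hold none at that share.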

How the data were processed

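UMI counts per gene and cell barcode were deposited by the authors as 1 sparse matrix per library, raw and not normalised. Per the submitters' processing notes Cell Ranger 5.0.1, Seurat 4.0.4 and the build mm10 were used, while the file headers name Cell Ranger 6.1.1, so the version is not settled. The WT matrix held 20886 barcodes and 168912853 UMIs and the Ythdf2 KO matrix 16312 barcodes and 134066610 UMIs. Barcodes were gated on UMI counts as described above, and UMIs were summed over the cells of a group and divided by that group's total (CPM). Genes with at least 100 UMIs over the 2 groups compared were compared, and 1.5-fold was the limit for a call. Ratios carry exact conditional binomial 95% intervals and shares exact Clopper-Pearson ones. With 1 library per genotype there is no test. Cells were thinned to 2000 UMIs to compare shares of cells. The 12 genes furthest apart each way, at 20 CPM or more, were named, beside members of 36 gene lists. One gene that this rule names is not reported here. Members and lists were chosen with earlier results of these data known. Granzyme combinations, the neighbours on chromosome 14 and the depth range of 5000 to 15000 UMIs were chosen after the data had been seen. Scripts were tested on simulated data. Python 3.11.15, numpy 2.4.6, scipy 1.17.1 and pandas 2.3.3 were used.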

Additional observations from a re-analysis of the deposited data

Results flagged for a closer look

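Areg, amphiregulin, a growth factor of the EGF family, differed between granzyme-rich and granzyme-low NK cells in opposite directions in the 2 libraries. In WT its ratio was 0.352 (0.261 to 0.479), from 120 UMIs in granzyme-rich and 72 in granzyme-low cells, or 4.24 against 12.04 CPM. In Ythdf2 KO its ratio was 9.65 (2.60 to 80.7), from 103 against 2 UMIs, or 6.52 against 0.675 CPM. The difference between the libraries was not tested, since each genotype had 1 library. Of the 8529 genes compared, 4 passed 1.5-fold in opposite directions.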

How the results depend on the processing

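Libraries could not be left out, since each genotype had 1. No paired analysis was possible because the groups hold 1 library each and no test was run. Among filtered barcodes, the share of granzyme-rich NK cells differed by -1.79 points (Ythdf2 KO minus WT) with NK genes at 5 per 10000. Without barcodes holding a second lineage it differed by -4.50 points, but that filter also took other cells, such as neutrophils and B cells, out of the denominator. It left 8496 WT and 6255 Ythdf2 KO barcodes. Of these 18.8% and 14.3% were granzyme-rich NK cells, against 9.05% and 6.54% in the main run. The difference in their share of NK cells was 1.11 points in cells of 5000 to 15000 UMIs. Between the libraries, 1836 genes were higher and 1397 lower with no filter on low counts, 54 and 56 with at least 400 UMIs, and 78 were higher in cells of 5000 to 15000 UMIs. Between granzyme-rich and granzyme-low cells, 447 were higher and 1651 lower with no filter, 87 and 327 with at least 400 UMIs, 110 and 333 in cells of 5000 to 15000 UMIs, and 520 were higher with each cell weighted equally. Fewer or more genes are compared under the filters; for the other settings the cause was not tested. List medians (log2, granzyme-rich over granzyme-low) that changed sign were those of ILC2 and ILC3 markers in Ythdf2 KO, 0.84, to -0.49 with a granzyme limit of 40 and -0.20 with no filter, of B cell markers in WT, 1.68, to -1.05 with NK genes at 5 per 10000, of tumour and stromal markers in Ythdf2 KO, 1.35, to -1.68 with no filter, and of metallothioneins and zinc transport in WT, 1.04, to -0.053 with no filter. Values of named genes past the fold in the main run were followed over the alternatives, each value being 1 gene under 1 setting. Between libraries 468 of 468 kept their sign and 457 stayed past the fold. Between granzyme-rich and granzyme-low cells 1006 of 1006 kept it and 994 stayed past the fold. Most of these genes were named for the largest ratios in the same cells, and Gzmg belongs to the rule. Kept signs were thus largely set in advance and are no separate support.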
